A study of Mus musculus with 4 samples.

Results

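Lhx2 and 9 other regulators of the hair follicle were followed in skin treated with bleomycin (BLM), a cytotoxic antibiotic that causes local fibrosis when it is injected into skin. The 10 genes are Lhx2, Sox9, Gata3, Vdr, Msx2, Foxn1, Lef1, Lgr5, Dlx3 and Fgf5, and all 10 were found by symbol among the 24441 rows of the gene table. They were chosen by name as regulators of follicle stem cells and of the hair cycle, and the list was headed by Lhx2 because its value was higher in both GSDMD KO libraries. The difference between GSDMD KO and WT therefore entered the choice, and it is given for these genes as a description. They were part of the limma fit over all genes, but no p is given for them and their calls are read as no support. RNA of lesional skin was sequenced in 4 libraries, 2 from WT and 2 from GSDMD KO mice. The labels give female C57BL/6 mice aged 8 weeks throughout, and all of them had received BLM under the skin every second day over 28 days, so that no untreated skin is among these libraries. The GSDMD KO line, made by Cas9 editing of fertilized eggs, carries the edit in the germline and not in a chosen cell type. The labels do not say that each library came from a separate animal, so that p-values measure only the spread between these libraries.

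Hair follicles pass through growth (anagen), regression (catagen) and rest (telogen). They are renewed from stem cells of the bulge and of the hair germ below it, while the matrix around the dermal papilla produces the hair shaft and its inner root sheath during growth. Lhx2 is a LIM-homeodomain transcription factor of bulge and hair germ cells, and Sox9 is an HMG-box factor needed to form and keep the stem cell pool and the outer root sheath. Gata3 specifies the inner root sheath and also acts in the epidermis, and the vitamin D receptor Vdr is needed for follicles to re-enter growth. Msx2 and Dlx3 are homeodomain factors of the matrix, Foxn1 is the forkhead factor mutated in nude mice, and Lef1 carries Wnt signals in the matrix and the precortex. Lgr5, a receptor for R-spondins, marks stem cells of the lower bulge and hair germ, and Fgf5 is the growth factor that ends anagen.

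Values are FPKM, fragments scaled to transcript length and to the size of the library, so that levels can be compared between genes. Gsdmd, the targeted gene, measured 14.0 and 18.2 FPKM in WT against 3.53 and 2.26 FPKM in GSDMD KO libraries, so that its values followed the labels. The libraries differed in the following ways, of which some followed genotype and others set a single library apart. GSDMD KO replicate 1 had the highest value of all 16 genes in a list of hair keratins and trichohyalin, with a sum of 399.6 FPKM against 1.48 to 12.3 FPKM in the other libraries. GSDMD KO replicate 2 was low in genes of other skin cells, with a sum of 24.9 FPKM over 6 fibroblast markers against 180.1 to 422 FPKM elsewhere. It was also the only library with Y-linked genes above 0 (4 of 15 rows, summing to 1.78 FPKM). Such low values do not settle whether the female label is wrong, and this was not tested. Macrophage markers (28.7 FPKM over 6 genes, against 337.2 to 774.7 FPKM) and adipocyte markers (37.4 FPKM over 4 genes, against 367.1 to 1301 FPKM) were lowest in GSDMD KO replicate 2 as well, and 5 of the 6 macrophage markers were lower in both GSDMD KO libraries than in both WT libraries, beside 20.5% of the 13027 genes tested. All 4 skeletal muscle markers were also lower in both, beside the same 20.5%, with sums of 16440 and 16640 FPKM in WT and of 10010 and 9653 FPKM in GSDMD KO libraries. WT replicate 2 had the lowest value of each of the 10 regulators. The part of these features in the results was not tested. Differences of the regulators are therefore given with and without each GSDMD KO library, and differences printed for other genes are given so where leaving out a library changed them by more than 1.5 times. In bulk tissue a smaller number of cells of a type and less RNA per cell cannot be told apart.

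Lhx2 was the member with the widest gap between the genotypes when taken as the ratio of the lowest GSDMD KO to the highest WT value. Its WT libraries measured 1.48 and 0.872 FPKM and GSDMD KO replicates 1 and 2 measured 7.99 and 10.02 FPKM. Both GSDMD KO libraries lay above both WT libraries, and the lower GSDMD KO value was 5.4 times the higher WT value. The means were 1.18 ± 0.431 FPKM in WT and 9.01 ± 1.43 FPKM in GSDMD KO skin (SD, n = 2 each), a ratio of 7.66. After a log2 transform of FPKM + 1, in which low genes show less than their true fold, the difference was 2.21 (standard error 0.28). It was 2.35 without GSDMD KO replicate 1 and 2.06 without GSDMD KO replicate 2, so that either library gave nearly the same value. About 59.5 and 28.5 fragments stood behind the WT values and 250.9 and 294 fragments behind the GSDMD KO values, as estimated from the steps in low FPKM values and the longest coding transcript. The gene lies on the plus strand of chromosome 2 from 38194801 to 38225257 in mm9, its longest coding transcript has 5 exons, and its exons overlap no other annotated gene.

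Sox9, Gata3 and Vdr had the same order of libraries as Lhx2, with GSDMD KO replicate 2 highest and WT replicate 2 lowest, the latter as in all 10 members. Sox9 (chromosome 11, 112643524 to 112649071, mm9) measured 2.73 and 1.97 FPKM in WT against 9.07 and 15.7 FPKM in GSDMD KO libraries. Its lower GSDMD KO value was 3.32 times its higher WT value, and the log2 difference was 1.96 (standard error 0.34). Gata3 measured 11.05 and 8.53 FPKM in WT against 27.1 and 39.5 FPKM in GSDMD KO libraries, a log2 difference of 1.66 (standard error 0.30). It was the most abundant of the 10 genes in WT skin. Gata3 lies on chromosome 2 from 9778705 to 9800227, and its exons overlap Gm13256 on the opposite strand and 9230102O04Rik on the same strand, so that fragments of these genes could have been counted with it. Vdr (chromosome 15, 97684858 to 97738727) measured 6.98 and 4.6 FPKM in WT against 23.4 and 43.8 FPKM in GSDMD KO libraries. Its log2 difference of 2.31 (standard error 0.39) was the largest of the 10 on this scale. Without GSDMD KO replicate 1 the differences of Sox9, Gata3 and Vdr were 2.32, 1.92 and 2.74, and without GSDMD KO replicate 2 they were 1.60, 1.39 and 1.87.

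**Figure D1:**
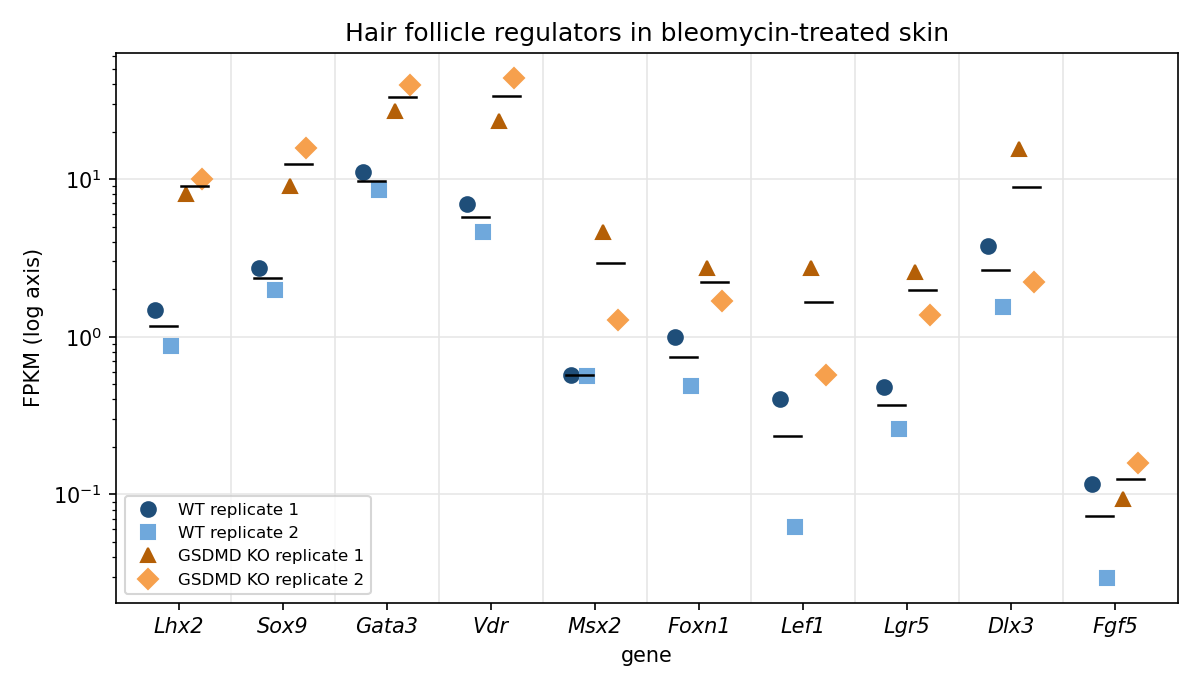
Level of the 10 regulators in each library, in FPKM on a log axis; points are libraries and short lines are group means (n = 2). Lhx2, Sox9, Gata3 and Vdr are high in both GSDMD KO libraries and highest in replicate 2, whereas Msx2, Foxn1, Lef1, Lgr5 and Dlx3 are highest in GSDMD KO replicate 1.

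The other regulators were highest in GSDMD KO replicate 1, except for Fgf5. Msx2 (chromosome 13, 53562250 to 53568149, mm9) measured 0.574 and 0.566 FPKM in WT against 4.63 and 1.28 FPKM in GSDMD KO libraries. The WT libraries were nearly equal, while the GSDMD KO libraries differed so much that replicate 2 held 0.276 times the value of replicate 1. Foxn1 (chromosome 11, 78171079 to 78200110) measured 1.00 and 0.488 FPKM in WT against 2.74 and 1.69 FPKM in GSDMD KO libraries. Lgr5 (chromosome 10, 114887370 to 115024836) measured 0.477 and 0.258 FPKM in WT against 2.59 and 1.36 FPKM in GSDMD KO libraries. In these 3 genes the genotypes did not overlap, and the log2 differences were 1.19 (standard error 0.47) for Msx2, 0.88 (standard error 0.31) for Foxn1 and 1.10 (standard error 0.31) for Lgr5. Without GSDMD KO replicate 1 they came to 0.54, 0.64 and 0.79, and without GSDMD KO replicate 2 to 1.84, 1.11 and 1.40. Lef1 (chromosome 3, 130813215 to 130927275) measured 0.404 and 0.0620 FPKM in WT against 2.73 and 0.572 FPKM in GSDMD KO libraries, where the lower WT value rested on about 3.08 fragments. Its GSDMD KO replicate 2 stood only slightly above WT replicate 1. The log2 difference of Lef1 was 0.99, or 0.36 without GSDMD KO replicate 1 and 1.61 without GSDMD KO replicate 2.

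Dlx3 and Fgf5 were the members whose genotypes overlapped. Dlx3 (chromosome 11, 94981431 to 94986605, mm9) measured 3.77 and 1.54 FPKM in WT against 15.5 and 2.22 FPKM in GSDMD KO libraries, so that GSDMD KO replicate 2 lay between the WT libraries. Its log2 difference of 1.07 (standard error 0.82) became -0.11 without GSDMD KO replicate 1 and 2.25 without GSDMD KO replicate 2. Fgf5 (chromosome 5, 98683203 to 98706052) stayed near the detection limit, with 0.116 and 0.0296 FPKM in WT against 0.0928 and 0.159 FPKM in GSDMD KO libraries. These values correspond to about 5.08, 1.06, 3.18 and 5.09 fragments, so that a difference in Fgf5 was not detectable at this depth. Its log2 difference of 0.07 was 0.11 without GSDMD KO replicate 1 and 0.03 without GSDMD KO replicate 2.

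**Figure D2:**
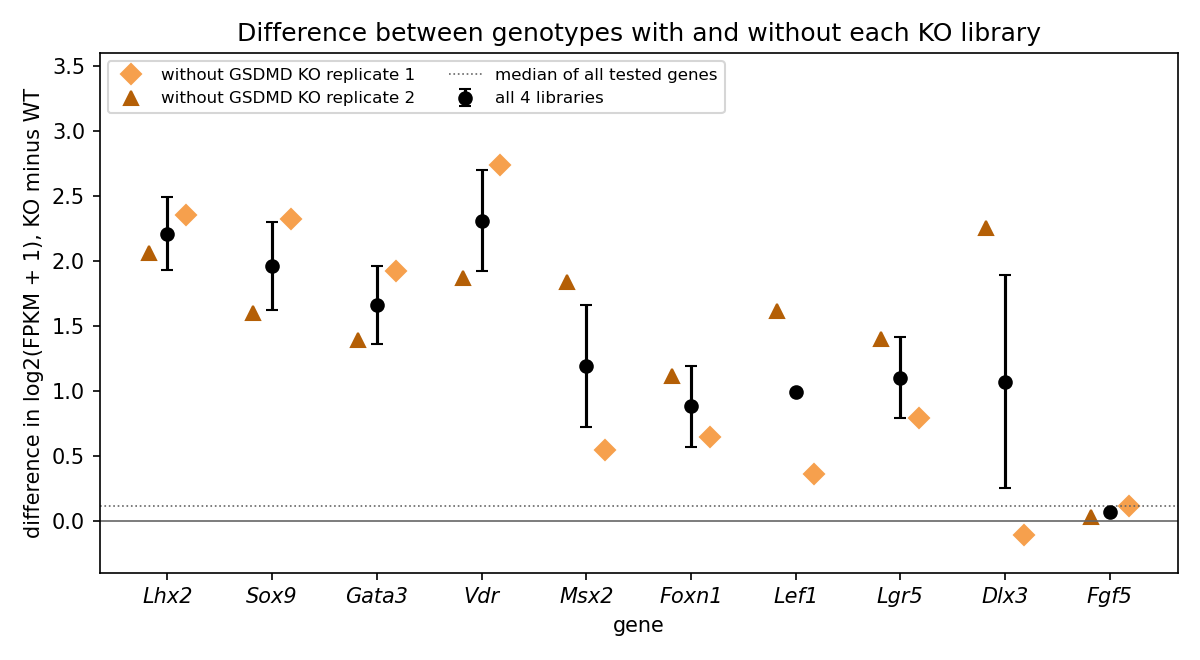
Difference in log2(FPKM + 1), GSDMD KO minus WT, for the 10 regulators with all 4 libraries (black, bars are standard errors of the limma fit, none for Lef1 and Fgf5, which were not tested) and without each GSDMD KO library; the dotted line is the median of all tested genes, 0.11. Leaving out a GSDMD KO library moves Lhx2 between 2.06 and 2.35 and Dlx3 between -0.11 and 2.25.

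Over the 10 genes, 8 had both GSDMD KO libraries above both WT libraries, 0 had both below, and 2 overlapped. Among the 13027 genes tested, 35.3% were higher and 20.5% were lower in this sense, and the members' count is not read against these shares because the contrast entered their choice. Of the 10 genes 8 passed the filter of at least 1 FPKM in at least 2 libraries. Msx2 and Lgr5 passed it only through the GSDMD KO libraries, and Lef1 and Fgf5 did not pass. A log2 difference above 1 was found in 7 of the 10, the overlapping Dlx3 among them, against 7.18% of tested genes. This count was 4 without GSDMD KO replicate 1, 9 without GSDMD KO replicate 2, 5 without WT replicate 2, 2 after centring on basal epidermal markers and 5 as a ratio to these markers without a pseudocount. In all, 0 members passed an adjusted p under 0.05 with an absolute log2 difference above 1 by limma with Benjamini-Hochberg adjustment, as in 0% of all genes. Without GSDMD KO replicate 1 limma called 4 members, Lhx2, Sox9, Gata3 and Vdr, and 15.8% of all tested genes, and nothing is read from this count because the contrast entered the choice of members. Before adjustment limma gave 802 higher genes (6.16%) and 539 lower genes (4.14%) of this size at p under 0.05, a split that became 616 and 700 with median-ratio scaling, under which the median over all genes moved from 0.11 to -0.01. The members had a median log2 difference of 1.14, and all tested genes one of 0.11.

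Levels of the members spanned a wide range. In WT skin the mean levels fell from Gata3 (9.79 FPKM) and Vdr (5.79 FPKM) through Dlx3 (2.66 FPKM), Sox9 (2.35 FPKM) and Lhx2 (1.18 FPKM) to Foxn1 (0.745 FPKM), Msx2 (0.570 FPKM), Lgr5 (0.368 FPKM), Lef1 (0.233 FPKM) and Fgf5 (0.0727 FPKM). Of neighbours in this order, the values of Dlx3 and Sox9, Lhx2 and Foxn1, Foxn1 and Msx2, Lgr5 and Lef1, and Lef1 and Fgf5 overlapped between the WT libraries. In GSDMD KO skin Vdr (33.6 FPKM) and Gata3 (33.3 FPKM) overlapped, followed by Sox9 (12.4 FPKM), Lhx2 (9.01 FPKM), Dlx3 (8.87 FPKM), Msx2 (2.95 FPKM), Foxn1 (2.21 FPKM), Lgr5 (1.98 FPKM), Lef1 (1.65 FPKM) and Fgf5 (0.126 FPKM). From Sox9 to Lef1 each gene overlapped with the next, so that only the steps from Gata3 to Sox9 and from Lef1 to Fgf5 exceeded the spread of the GSDMD KO libraries.

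The table of RefSeq promoters (build GRCm38.p6) held 7 of the 10 genes with 11 start sites. Sox9, Dlx3 and Lgr5 were not matched. The 250 bases before the start are shown for Lhx2, which has 2 start sites, and for Gata3 and Vdr, which share its order of libraries, and for Msx2 and Foxn1, which do not. Capitals mark TAATTA, a core bound by many homeodomain proteins, Lhx2, Msx2 and Dlx3 among them.
Lhx2 start 1, chr2:38339031-38339280, plus strand: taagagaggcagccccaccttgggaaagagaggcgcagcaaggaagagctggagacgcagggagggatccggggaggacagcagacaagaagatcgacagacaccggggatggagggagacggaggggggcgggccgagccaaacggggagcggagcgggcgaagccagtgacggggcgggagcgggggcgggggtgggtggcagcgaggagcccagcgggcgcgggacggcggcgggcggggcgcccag
Lhx2 start 2, chr2:38351058-38351307, plus strand: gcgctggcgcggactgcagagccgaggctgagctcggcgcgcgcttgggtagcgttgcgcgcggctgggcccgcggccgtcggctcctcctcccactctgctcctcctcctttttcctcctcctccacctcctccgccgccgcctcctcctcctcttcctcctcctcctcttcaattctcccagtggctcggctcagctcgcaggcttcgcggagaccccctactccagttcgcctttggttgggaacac
Gata3, chr2:9878601-9878850, minus strand: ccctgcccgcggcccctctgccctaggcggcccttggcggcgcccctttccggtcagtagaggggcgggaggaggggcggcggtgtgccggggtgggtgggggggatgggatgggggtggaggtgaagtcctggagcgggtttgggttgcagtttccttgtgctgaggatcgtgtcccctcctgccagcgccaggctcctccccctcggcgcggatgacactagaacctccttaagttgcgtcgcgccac
Vdr, chr15:97908297-97908546, minus strand: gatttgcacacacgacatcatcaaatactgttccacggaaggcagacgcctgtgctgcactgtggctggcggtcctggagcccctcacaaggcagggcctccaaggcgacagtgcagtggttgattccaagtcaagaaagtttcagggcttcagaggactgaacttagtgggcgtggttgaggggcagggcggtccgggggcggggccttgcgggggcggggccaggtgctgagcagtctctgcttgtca
Msx2, chr13:53472781-53473030, minus strand: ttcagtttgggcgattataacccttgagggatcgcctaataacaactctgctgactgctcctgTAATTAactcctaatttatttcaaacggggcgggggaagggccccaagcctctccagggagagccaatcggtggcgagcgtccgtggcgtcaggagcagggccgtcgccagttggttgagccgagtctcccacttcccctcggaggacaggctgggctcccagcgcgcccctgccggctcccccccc
Foxn1, chr11:78386609-78386858, minus strand: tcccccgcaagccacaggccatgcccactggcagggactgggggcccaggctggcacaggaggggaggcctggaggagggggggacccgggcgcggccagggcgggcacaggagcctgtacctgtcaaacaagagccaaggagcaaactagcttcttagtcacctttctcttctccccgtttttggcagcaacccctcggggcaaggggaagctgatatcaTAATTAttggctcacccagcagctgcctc

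These windows were searched on both strands for 4 motifs, namely CTTTGA for LEF/TCF factors, TAATTA for homeodomain factors, ACAATG for SOX factors and AGATAA for GATA factors. Neither Lhx2 window nor those of Gata3 and Vdr held any of these letters. Msx2 held TAATTA 187 bases and Foxn1 29 bases before the start, and 4.84% of the 32851 windows in the table hold it. The fourth start site of Lef1 held CTTTGA on the reverse strand at 180 and 120 bases and ACAATG on the same strand at 132 bases before the start, motifs that 13.8% and 10.7% of all windows hold. AGATAA, held by 9.99% of all windows, was in none of the 11, and no matches overlapped. The member windows were rich in G and C, with a median of 66.4% against 52.4% over all windows, although 4 of the 11 belong to Lef1 and some of these overlap.

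Genes with values most like those of Lhx2 were then listed, by the root mean square difference between mean-centred log2(FPKM + 1) values over the 4 libraries. The closest was Bnipl (0.136 log2 units), with 13.5 and 8.48 FPKM in WT against 39.4 and 57.1 FPKM in GSDMD KO libraries. Krt75, a keratin of the companion layer of the follicle, came next (0.165), with 3.59 and 2.10 FPKM in WT against 14.2 and 23.4 FPKM in GSDMD KO libraries. It belongs to a list of 5 outer root sheath and companion layer keratins, of which 2 were higher and 0 were lower without overlap. Among all tested genes these shares were 35.3% and 20.5%. Krt17 was the other higher gene, with 360 and 201 FPKM in WT against 953 and 530 FPKM in GSDMD KO libraries. The rest overlapped, among them Krt16, with 410 and 165 FPKM in WT against 602 and 125 FPKM in GSDMD KO libraries. Sox9 was the third (0.199) among the 13027 tested genes. It was followed by Tfap2a (0.199), an AP-2 transcription factor of the epidermis, with 6.31, 3.37, 19.6 and 33.5 FPKM in the same order, and by Nrarp (0.205), a target and inhibitor of Notch signalling, with 15.4, 7.49, 46.0 and 65.3 FPKM. Of the other members Vdr stood at place 9 and Gata3 at place 45, whereas Lgr5, Foxn1, Msx2 and Dlx3 stood at places 811, 1266, 1720 and 7108. With only 4 libraries many genes can share such values.

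**Figure D3:**
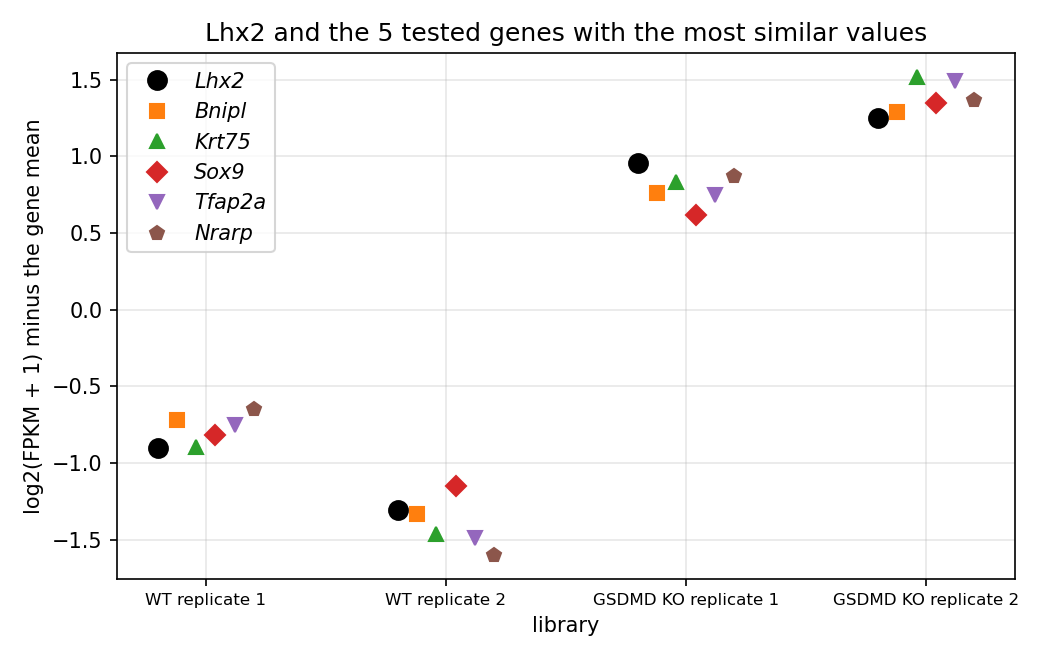
Mean-centred log2(FPKM + 1) of Lhx2 (black circles) and of the 5 tested genes with the smallest root mean square difference to it, in the 4 libraries. All 6 genes lie below their mean in both WT libraries and above it in both GSDMD KO libraries.

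Basal markers of the epidermis were also higher in both GSDMD KO libraries. Krt14 and Krt5, the keratins of basal keratinocytes, had 1290 and 1210 and 764 and 765 FPKM in WT against 2690 and 2740 and 1730 and 1660 FPKM in GSDMD KO libraries. Both pairs of values thus lay apart from the WT values, as they did in all 6 basal markers, beside 35.3% of all tested genes (median log2 difference 1.10, 0 called by limma). Each regulator was also divided by the geometric mean of the 6 basal markers, a step added after the data had been seen, and expressed per 1000 FPKM of it. Lhx2 then stood at 20.4 and 12.9 in WT and at 55.0 and 62.8 in GSDMD KO libraries, a ratio of means of 3.55 in place of 7.66. Vdr gave 95.8, 67.8, 161 and 274 and Sox9 gave 37.6, 29.1, 62.4 and 98.3 in the same order, with ratios of 2.66 and 2.41. For Gata3 the ratio was 1.56, with 152 and 126 in WT and 186 and 248 in GSDMD KO libraries. In these 4 genes and in Lgr5 (6.56, 3.81, 17.8 and 8.55) the genotypes still did not overlap. In Msx2, Foxn1, Lef1 and Dlx3 they overlapped on this scale, and GSDMD KO replicate 2 of Msx2 (8.00) lay between the WT values of 7.89 and 8.34. After the planned centring of log2(FPKM + 1) on these markers Lgr5 overlapped too, with a log2 difference of 0.01 in place of 1.10. Suprabasal markers did not share the pattern of the basal markers, since 5 of them summed to 3671 and 1981 FPKM in WT and to 7684 and 1394 FPKM in GSDMD KO libraries. The part of basal keratinocyte content in the differences was not tested beyond this scaling.

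**Figure D4:**
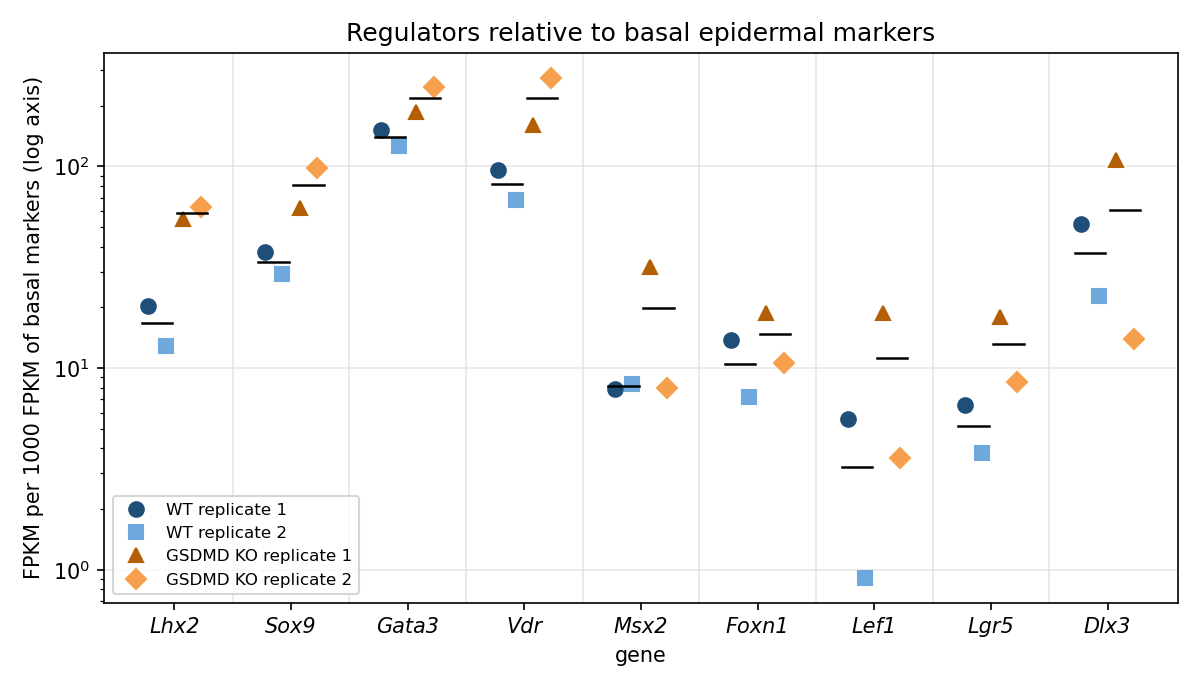
Level of 9 regulators per 1000 FPKM of the geometric mean of 6 basal epidermal markers, on a log axis; points are libraries and short lines are group means (n = 2), and Fgf5 is left out because few fragments stood behind it. Lhx2, Sox9, Gata3, Vdr and Lgr5 keep both GSDMD KO libraries above both WT libraries, and GSDMD KO replicate 2 of Dlx3 (13.9) falls below the WT libraries.

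Other genes of the follicle were described with lists of related regulators and structural genes, in which limma called 0 genes. Counts of genes without overlap are given over tested genes, beside the 35.3% higher and 20.5% lower among all tested genes. The lists were chosen with earlier results known, and no difference between lists was tested. Unlike the members, they were not scaled to the basal epidermal markers, all 6 of which were higher without overlap (median log2 difference 1.10). Of 14 tested genes of the bulge, hair germ and upper follicle, 11 had both GSDMD KO libraries above both WT libraries and 0 had both below (median log2 difference 1.01). Krt79, a keratin of the upper follicle, measured 156 and 101 FPKM in WT against 427 and 919 FPKM in GSDMD KO libraries, a log2 difference of 2.31 (standard error 0.46, adjusted p = 0.248 by limma). Krt15, a bulge and basal keratin, had 128 and 118 FPKM against 225 and 670 FPKM (adjusted p = 0.262 by limma), and its log2 difference of 1.65 was 0.86 without GSDMD KO replicate 2. In contrast, the bulge marker Cd34, which endothelial and dermal cells also express, overlapped, with 42.1 and 31.5 FPKM in WT against 52.4 and 15.9 FPKM in GSDMD KO libraries, and its log2 difference of -0.32 was -1.15 without GSDMD KO replicate 1 and 0.51 without GSDMD KO replicate 2.

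Of 16 further transcription regulators of the matrix and of hair differentiation 10 were tested, and of these 8 were higher without overlap and 0 were lower, beside 35.3% and 20.5% of all tested genes. Their median log2 difference was 0.66 over the 16 and 1.28 over those tested. Hr, the hairless corepressor that works with Vdr, measured 34.0 and 26.3 FPKM in WT against 69.6 and 59.0 FPKM in GSDMD KO libraries (log2 difference 1.07, adjusted p = 0.248 by limma). Sox21, a hair cuticle factor, had 2.93 and 1.69 FPKM against 8.06 and 14.9 FPKM, and Grhl1, a factor of the differentiating epidermis and follicle, had 12.8 and 6.54 FPKM against 29.5 and 44.9 FPKM, both with GSDMD KO replicate 2 highest as in Lhx2. Barx2 was at 44.8 and 35.4 FPKM in WT against 67.8 and 63.3 FPKM in GSDMD KO libraries.

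Hair keratins and trichohyalin, which the matrix makes during growth, followed another pattern. Krt71, an inner root sheath keratin, measured 2.77 and 0.0661 FPKM in WT against 86.4 and 1.04 FPKM in GSDMD KO libraries, so that only GSDMD KO replicate 1 was high. Its log2 difference of 2.74 was 0.03 without GSDMD KO replicate 1 and 5.45 without GSDMD KO replicate 2. Of the 7 tested genes 4 nevertheless had both GSDMD KO libraries above both WT libraries, beside 35.3% of all tested genes, but Krt28, Krt35 and Krt85 passed the filter only through the GSDMD KO libraries, so that their order was fixed by it. Krt25 reached 84.1 FPKM in GSDMD KO replicate 1 against 2.43 FPKM in WT replicate 1, and it was listed at 0 in the other libraries. The list had a median log2 difference of 2.74 over its tested genes, of 0.47 without GSDMD KO replicate 1 and of 4.37 without GSDMD KO replicate 2. These keratins are similar in sequence, and fragments could have been shared between them. Melanocyte markers moved in the same library, summing to 77.7 FPKM in GSDMD KO replicate 1 and to 5.18 to 8.86 FPKM in the others. Msx2, Foxn1, Lef1, Lgr5 and Dlx3 were highest in this library too, and the part of growing follicles in their values was not tested. In GSDMD KO replicate 2, where Lhx2, Sox9, Gata3 and Vdr were highest, the hair keratin list summed to 12.3 FPKM against 9.30 and 1.48 FPKM in WT. The 4 sebaceous markers summed to 1756 FPKM in that library, close to the 1706 FPKM of WT replicate 2. Most of these sums came from Scd1, a desaturase that adipocytes also express, which overlapped at 564, 1690, 474 and 1130 FPKM (log2 difference -0.41, or 0.21 without GSDMD KO replicate 1 and -1.04 without GSDMD KO replicate 2). Elovl3 and Cidea, by contrast, had both GSDMD KO libraries above both WT libraries, as did 3 of the 4 markers, beside 35.3% of all tested genes. Elovl3 measured 8.90, 4.64, 58.3 and 297 FPKM and Cidea 11.3, 15.1, 44.6 and 267 FPKM, in the order WT replicates 1 and 2 and GSDMD KO replicates 1 and 2. The median log2 difference of the 4 was 3.17, or 2.01 without GSDMD KO replicate 2.

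**Figure D5:**
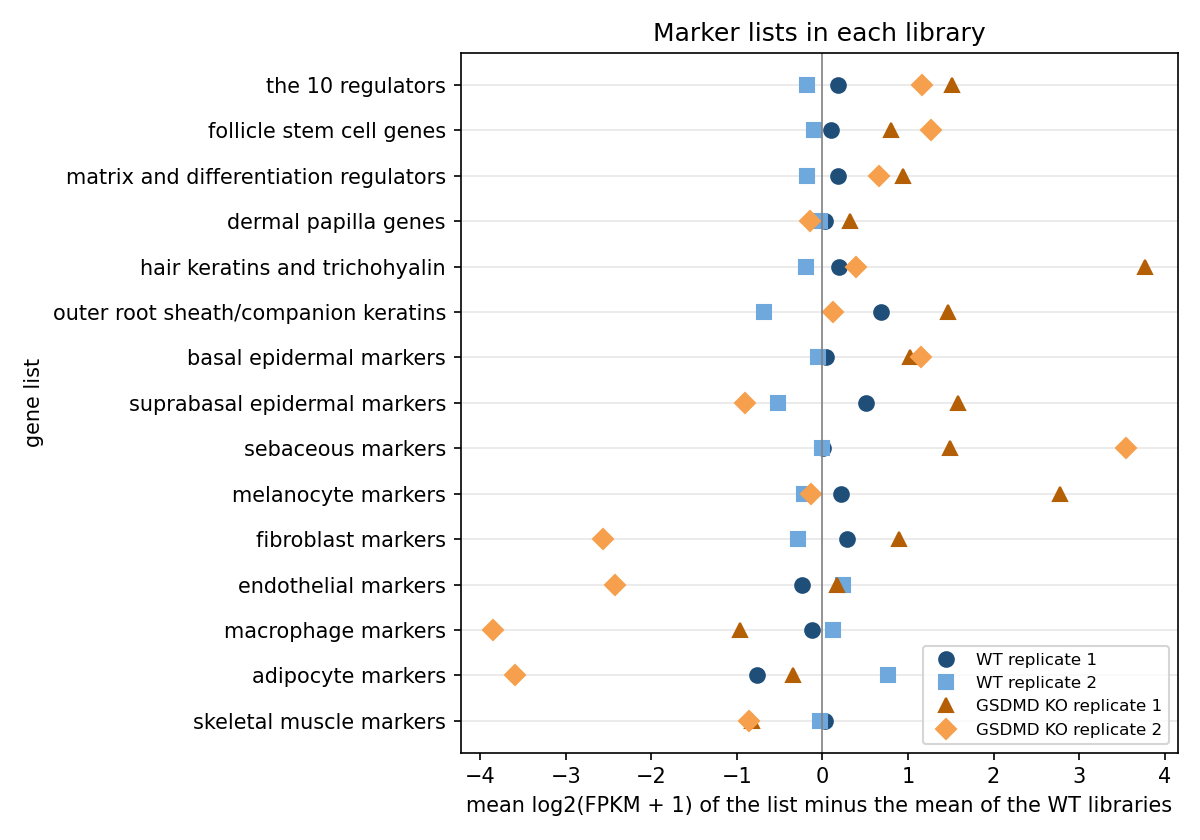
Mean log2(FPKM + 1) of each gene list in the 4 libraries, minus the mean of the WT libraries. Hair keratins and melanocyte markers are high only in GSDMD KO replicate 1, fibroblast, endothelial, macrophage and adipocyte markers are lowest in GSDMD KO replicate 2, and basal epidermal markers are higher in both GSDMD KO libraries.

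Of 16 dermal papilla genes 6 were tested, of which 1 was higher and 1 was lower without overlap, beside 35.3% and 20.5% of all tested genes, and the median log2 difference was 0.09. The higher gene was Wif1, which passed the filter only through the GSDMD KO libraries, so that its order was fixed by it. Wif1, a secreted Wnt inhibitor, measured 0.865 and 0.479 FPKM in WT against 5.74 and 2.38 FPKM in GSDMD KO libraries (log2 difference 1.52). Nog, the BMP antagonist Noggin, had 10.8 and 7.26 FPKM against 5.65 and 6.70 FPKM, and Sox18, which endothelium also expresses, overlapped at 12.3, 21.5, 15.9 and 2.41 FPKM. The log2 difference of Sox18 was -1.18, and it was -2.34 without GSDMD KO replicate 1 and -0.03 without GSDMD KO replicate 2. All 6 fibroblast markers and all 5 endothelial markers had their lowest value in GSDMD KO replicate 2, which bears on any mesenchymal gene of this list, and their part in it was not tested.

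Partners of the regulators were then compared, ordered by pathway. Among 19 LIM-domain genes and cofactors 10 were tested, of which 4 were higher and 1 was lower without overlap, beside 35.3% and 20.5% of all tested genes, and the median log2 difference was -0.01. Ldb1, the cofactor that LIM-homeodomain proteins such as Lhx2 bind, measured 44.0 and 47.2 FPKM in WT against 67.2 and 75.2 FPKM in GSDMD KO libraries (log2 difference 0.63, adjusted p = 0.277 by limma). Lmo1 had 13.1 and 12.3 FPKM against 26.6 and 80.0 FPKM (log2 difference 1.79, or 1.01 without GSDMD KO replicate 2, adjusted p = 0.248 by limma), and Lmo4 overlapped at 31.2, 54.3, 42.7 and 43.4 FPKM. The retinoid X receptor Rxra, a partner of Vdr, measured 38.1 and 41.3 FPKM in WT against 45.1 and 48.8 FPKM in GSDMD KO libraries, a log2 difference of 0.24. Rxrg had 11.7 and 12.9 FPKM against 6.63 and 7.01 FPKM, a log2 difference of -0.77 (adjusted p = 0.251 by limma). The 7 genes around Vdr had a median of 0.12, close to that of all genes.

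Among 12 genes of R-spondin and Wnt signalling, which act with Lgr5 and Lef1, 9 were tested, of which 7 were higher and 0 were lower without overlap, beside 35.3% and 20.5% of all tested genes (median log2 difference 0.59). Rnf43 is among the 7 but passed the filter only through the GSDMD KO libraries, which fixed its order. Ctnnb1, the beta-catenin that Lef1 binds, measured 80.7 and 74.0 FPKM in WT against 105 and 131 FPKM in GSDMD KO libraries. Axin2, a common target of Wnt signals, had 4.94 and 4.47 FPKM against 6.86 and 10.9 FPKM (log2 difference 0.76, or 0.46 without GSDMD KO replicate 2, adjusted p = 0.292 by limma). Rnf43, a ligase that removes Wnt receptors and is held back by R-spondin and its receptors, had 0.972 and 0.835 FPKM against 2.36 and 4.59 FPKM (log2 difference 1.19). Fgfr1, a receptor of Fgf5, measured 22.0 and 21.1 FPKM in WT against 23.1 and 25.1 FPKM in GSDMD KO libraries, a log2 difference of 0.15 that was 0.09 without GSDMD KO replicate 2. Fgfr2 stood at 4.59 and 4.17 against 9.54 and 12.2 FPKM and Fgfr3 at 12.9 and 12.3 against 27.1 and 20.9 FPKM (log2 differences 1.13 and 0.87, limma adjusted p = 0.248 in each). Of the 4 tested FGF genes 3 were higher and 0 were lower without overlap, beside 35.3% and 20.5% of all tested genes, and their median log2 difference was 0.61, or 1.01 without GSDMD KO replicate 2. Over all 6 genes of the list the median was 0.25.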

How the data were processed

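Skin RNA of 2 WT and 2 GSDMD KO libraries was analysed. According to the methods and the submitters' processing notes, reads were mapped by the authors to mm9 using HISAT2 (2.0.1), and the notes also name StringTie (2.0.6). The methods describe read counts and DESeq2, but the deposited table holds FPKM (99.993% of values above 0 are not whole), so that count models were not used, and the strand setting is not given in the sources used here. Loci in the table were checked against GENCODE annotation of the same build. Of 20310 symbols found there, 99.2% overlapped the annotated gene. Library sums were 448544 to 462251 FPKM. The value of 1 fragment on 1 kb, read from steps in low values of 2710 genes with a single transcript, was 0.057 to 0.0781 FPKM, and 3 fragments (0.171 to 0.234 FPKM on 1 kb) were taken as the floor. Fragment numbers are approximate and cover counting error only.

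FPKM was log2-transformed after adding 1. Genes reaching 1 FPKM in 2 or more libraries (13027) entered limma (3.58.1, R 4.3.3), with genotype as the term and a trended prior, and p-values were Benjamini-Hochberg adjusted. The code of the fit was tested on simulated data with equal normal noise in all libraries and 200 genes raised in the GSDMD KO libraries. The spread of the real libraries was not simulated, so that this checked the code and not the fit to these data. After the methods, a call required a log2 difference beyond 1 in size with adjusted p below 0.05. For 2 against 2 libraries the smallest exact two-sided permutation p is 0.333. Members and gene lists were chosen with earlier results of these data known. Genes named are the members, Gsdmd, the 3 most abundant genes of each list described and its tested gene with the largest log2 difference, and the 5 genes closest to Lhx2. Of 26 symbols turned into dates, 0 are members. Tables were made with Python 3.11.15. Alternatives covered pseudocounts, scalings, filters, a replicate block, the trend, centring on basal epidermal markers and leaving out each library.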

Additional observations from a re-analysis of the deposited data

How the results depend on the processing

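The difference of Lhx2 kept its direction under every alternative for which it was computed. It was 2.52 with a pseudocount of 0.5 and 2.87 with 0.1, and leaving out each library in turn gave 2.00 to 2.41. Leaving out a library could not turn its sign, since both GSDMD KO values lay above both WT values. Centring on the basal epidermal markers gave 1.12, and the ratio to these markers without a pseudocount, chosen after seeing the data, gave 1.86. The median of the 10 members was 2.03 with a pseudocount of 0.1, 0.06 after centring and 1.11 as the ratio without a pseudocount, and 0.72 to 1.60 with 1 library left out. After centring the sign turned in Foxn1 (-0.21), Lef1 (-0.10), Dlx3 (-0.02) and Fgf5 (-1.02). As a ratio without a pseudocount these were 0.50, 1.86, 0.17 and -0.06, so that only Fgf5 turned. Leaving out libraries gave -0.11 to 2.25 for Dlx3, the lowest without GSDMD KO replicate 1. The limma calls over all genes ranged from 0 to 2058 with 1 library left out. They were 2058 without GSDMD KO replicate 1, 43 without GSDMD KO replicate 2 and 0 without either WT library, where the lone sample of a group was assumed to vary like the other group. Higher genes before adjustment ranged from 266 (without WT replicate 2) to 1412 and lower genes from 242 (without WT replicate 2) to 1605, called genes of the other lists from 0 to 50, and called members from 0 to 4 (Lhx2, Sox9, Gata3 and Vdr, without GSDMD KO replicate 1). The cause was not tested.

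Medians of tested list genes whose sign turned ranged, with 1 library left out, from -0.14 to 0.01 in dermal papilla genes, -0.16 to 0.45 in LIM-domain genes, -0.72 to 0.48 in T cell markers, -2.61 to 0.29 in endothelial markers, -2.71 to 0.80 in fibroblast markers, -0.07 to 3.02 in melanocyte markers and -0.85 to 1.68 in suprabasal markers. The median of the Vdr partners was -0.01 with median-ratio scaling.

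Over genes, the deviations of same-numbered libraries had a correlation of -0.202. With a single such difference per genotype, this cannot decide whether the numbers pair libraries. With the replicate block Lhx2 differed by 2.21 (standard error 0.40), limma called 0 genes, and 907 higher and 686 lower genes passed before adjustment. With the crossed pairing, chosen after seeing the data, these counts were 0, 819 and 681.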
